A study of Mus musculus with 285 samples.

Results

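Along the mouse numbers of an F2 intercross, 2 runs held mostly mice with less RNA of several slow muscle fibre genes than the mice numbered between them. These runs are compared here with those mice. The runs were taken as numbers 51-90 (36 mice) and 271-310 (40 mice), read from the number in each sample's title, and the comparison mice as numbers 91-270 (160 mice). The runs thus held 76 of 285 mice. The limits had been chosen from values of these same arrays, above all from the slow fibre genes and from Myh7, Irx5, Pitx1 and En1. For these genes the values below are a description and carry no test. All other genes were measured on the same arrays, so their p-values describe these mice and are not independent evidence. Among them, Tbx1, Kera, Dkk3, Twist1, Hoxc6, Slc8a1, Penk, Fhl1, Fhl2, Pdlim1 and Ldhb had been listed as followers of the slow fibre genes. That list was drawn up with earlier results of these data known, so their calls were largely fixed by the choice of the runs.

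All mice shared 1 treatment. They came from an intercross of F1 mice, for which the labels name the strains C57B1/J6 (so spelled there) and C3H/HeJ. They ate chow with 4% fat to 8 weeks of age and then, for 12 weeks, a Western diet (42% fat, 0.15% cholesterol), and were killed at 20 weeks after 12 hours without food. Both sexes were used. For a given mouse the labels state neither sex nor genotype nor the direction of its cross, and the muscle taken is not named, so neither group can be described beyond its numbers. RNA of each mouse (Cy3) was set against a pool of equal portions of all samples (Cy5) on a 2-colour array, and values are given here as log2 of mouse over pool, where 0 is the level of the pool and 1 is a doubling. The labels state the dyes but neither the base nor the sign of the deposited log ratios, and every direction below rests on reading them as mouse over pool. A ratio to a pool shows which mice are higher or lower for a gene, but not how abundant the gene is, and no gene's level is set against another's. Each mouse was 1 array, so the spread is that between mice.

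Slow, type I fibres contract slowly, rely on oxidative metabolism and build their sarcomeres from their own isoforms of myosin, troponin and the calcium pump; fast fibres use other isoforms. Muscles differ in their share of slow fibres, and muscles, tendons and fibroblasts of different places in the body keep different sets of patterning transcription factors, such as Hox, Iroquois, T-box and Engrailed proteins, into adult life. In RNA of whole muscle, fewer cells of a type and less RNA per cell cannot be told apart.

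The promoters of the slow myosin heavy chain and of 3 slow troponin subunits are shown because these genes were low together in the runs. Each is the 250 bases before the start listed first in the RefSeq table for build GRCm38.p6, 5′ to 3′ on the gene's strand: Myh7, minus strand, chr14:54994627-54994876; Tnnt1, minus strand, chr7:4515976-4516225; Tnnc1, plus strand, chr14:31208062-31208311; Tnni1, plus strand, chr1:135799171-135799420. The table lists 2 starts each for Myh7 and Tnni1. Capitals mark TATAAA (the TATA box) and CATTCC (the core of the MCAT element, which TEAD factors bind), each searched on both strands.
Myh7: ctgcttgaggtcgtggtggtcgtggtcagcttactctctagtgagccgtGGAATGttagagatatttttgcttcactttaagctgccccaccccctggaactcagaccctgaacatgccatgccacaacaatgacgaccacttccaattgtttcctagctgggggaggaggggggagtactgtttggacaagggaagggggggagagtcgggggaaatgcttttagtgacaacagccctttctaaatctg
Tnnt1: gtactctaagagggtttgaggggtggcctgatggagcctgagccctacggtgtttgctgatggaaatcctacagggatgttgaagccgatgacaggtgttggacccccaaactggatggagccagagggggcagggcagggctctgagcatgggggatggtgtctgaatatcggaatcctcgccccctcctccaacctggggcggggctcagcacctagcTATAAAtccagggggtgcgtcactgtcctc
Tnnc1: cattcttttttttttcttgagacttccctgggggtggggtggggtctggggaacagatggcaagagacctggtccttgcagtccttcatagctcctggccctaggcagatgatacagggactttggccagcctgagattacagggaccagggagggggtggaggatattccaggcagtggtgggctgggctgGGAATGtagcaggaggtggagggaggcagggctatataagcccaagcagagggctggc
Tnni1: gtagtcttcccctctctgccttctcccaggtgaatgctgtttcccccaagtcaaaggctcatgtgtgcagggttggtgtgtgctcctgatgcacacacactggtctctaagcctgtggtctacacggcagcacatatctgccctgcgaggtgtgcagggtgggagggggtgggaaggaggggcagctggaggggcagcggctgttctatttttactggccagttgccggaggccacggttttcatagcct
CATTCC is present in the Myh7 and Tnnc1 promoters, where it reads GGAATG, being on the opposite strand. The Tnnt1 promoter holds TATAAA and the Tnni1 promoter neither motif. Over 32851 listed promoters of the same length, 12.4% hold TATAAA and 12.6% hold CATTCC. The E-box CANNTG, read by myogenic bHLH factors, occurs in all 4 promoters and in 66.2% of those listed, and is left in lower case. These matches describe the letters and say nothing on binding.

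The genes that chose the runs showed the following values. Myh7, the slow myosin heavy chain, ranged from -5.70 to 0.25 with a median of -4.04 in numbers 51-90. In numbers 271-310 it ranged from -5.93 to -0.06 with a median of -3.11, and in numbers 91-270 from -3.43 to 1.30 with a median of -0.07. The groups overlapped, since single run mice sat at the level of the pool and a few middle mice were low. The difference of means was -3.15 ± 0.15 (SE, 76 and 160 mice), or 8.89-fold. Irx5, an Iroquois homeobox factor, had medians of -1.61 and -1.93 in the lower and upper run against 0.19 in the middle, with middle values from -2.11 to 1.14. En1, a homeobox factor of the ventral limb ectoderm and of the dorsal dermis, went the other way, with medians of 1.14 and 1.43 against -0.69. Pitx1, the hindlimb homeobox factor, had medians of -0.54 and -0.61 against 0.09, and its ranges overlapped widely: -1.65 to 0.71 in the lower run, -1.40 to -0.01 in the upper run and -1.25 to 1.44 in the middle.

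**Figure D1:**
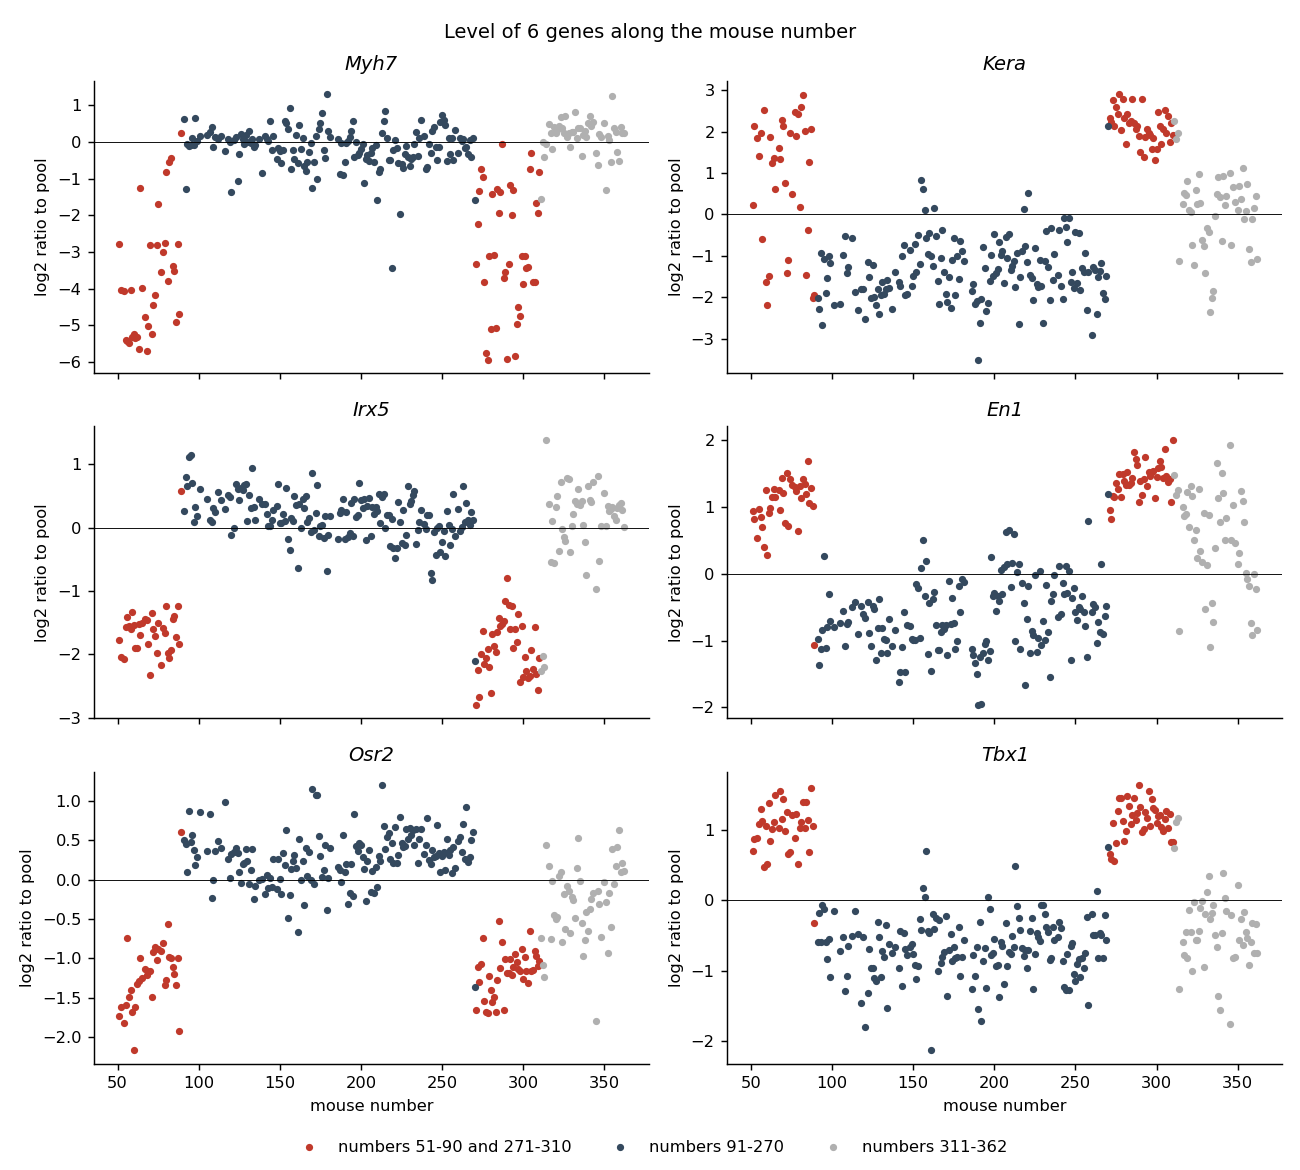
Log2 ratio to the pool (y axis) against mouse number (x axis) for 6 genes; each point is 1 mouse, red in numbers 51-90 and 271-310, dark blue in 91-270 and grey in 311-362. Irx5, Osr2, En1 and Tbx1 step at the edges of the runs, while Myh7 in both runs and Kera in numbers 51-90 are spread from the middle mice's level to far from it.

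At the edges the values changed from one mouse to the next. Irx5 was -1.84 in mouse 88, 0.58 in mouse 89 and 0.26 in mouse 91. At the second limit it was 0.11 in mouse 269, -2.11 in mouse 270 and -2.80 in mouse 271. Mice 89 and 270 therefore went against their range. Mouse 89 also had Myh7 at 0.25, En1 at -1.06, Tbx1 at -0.32 and Osr2 at 0.60, the levels of the middle mice, and mouse 270 had Myh7 at -1.58, En1 at 1.19, Tbx1 at 0.76 and Osr2 at -1.37. Without both mice the differences were -3.21 for Myh7, 1.90 for En1, 1.79 for Tbx1 and -1.51 for Osr2. Past the upper run, mice 311, 312 and 313 still had Irx5 at -2.26, -2.03 and -2.20, with Myh7 at -1.54, -0.01 and -0.40, and mouse 314 had Irx5 at 1.39.

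Each mouse was also placed by whether it lay past the midpoint between the 2 groups' medians, on the run side. The genes were Myh7, Irx5, En1, Osr2, Tbx1 and Kera, a small proteoglycan of cornea and tendon. These 6 were picked after their values were seen. Of the 76 run mice, 47 were past all 6 midpoints, 26 past 5, 2 past 4 and mouse 89 past none. Of the 160 middle mice, 146 were past none, 11 past 1, 2 past 2 and mouse 270 past 5. For Irx5 75 run mice and 2 middle mice lay past the midpoint, for Tbx1 75 and 3, for Osr2 75 and 3, and for En1 74 and 6. For Myh7 the counts were 57 and 2, and for Kera 64 and 4. Every run mouse other than mouse 89 was thus past the midpoints of Irx5, Tbx1 and Osr2, including the 18 others that were not past that of Myh7.

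How the 4 genes that chose the runs varied together inside each group is given as a description, with no test, and the groups themselves were cut on these genes. In the 76 run mice Myh7 and Irx5 had r = 0.0110 and rho = -0.126, with r of 0.234 in the lower and -0.0458 in the upper run. Irx5 and En1 had r = -0.401 and rho = -0.134 in the runs, but r was -0.605 in the lower run and 0.171 in the upper run. Over both runs r was -0.106 after leaving out the 2 mice most extreme in Irx5. The lower-run values include mouse 89 (Irx5 at 0.58, En1 at -1.06, Myh7 at 0.25), which went with the middle mice. They were not calculated without it and so may rest on that mouse. Pitx1 and En1 had r = 0.0341 and rho = 0.293, with r of -0.0931 in the lower and 0.497 in the upper run. In the 160 middle mice Irx5 and Pitx1 had r = 0.308 and rho = 0.304, Myh7 and Pitx1 r = 0.249 and rho = 0.237, and Irx5 and En1 r = -0.251 and rho = -0.191. After leaving out 2 extreme mice these had r of 0.334, 0.202 and -0.122. Myh7 and Irx5 had r = -0.0481 there. The remaining pairs had r from 0.0918 to 0.206.

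Across all features the runs differed broadly but by little. The fit with limma tested 21512 features, 11622 named genes and 9890 probes without a name, and called 9753 of them (45.3%) at an adjusted p under 0.05, 3933 higher (18.3%) and 5820 lower (27.1%) in the runs. The median absolute difference was 0.06. Mice of near numbers resembled each other, with a correlation of 0.118 within bins of 20 numbers, so tests that take mice as independent give p-values that are too small. With the 4 bin means of the runs set against the 9 of the middle, 641 features were higher (2.98%) and 564 lower (2.62%), together 5.6%. Each run lies in its own stretch of numbers, so the group and whatever else changed with the number cannot be told apart.

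A stricter reading compared each run with its own neighbours, numbers 51-90 with 91-180 (76 mice) and numbers 271-310 with 181-270 (84 mice), which share no mouse and are called the lower and the upper comparison. Below, a gene rose or fell where limma called it in both of these comparisons at an adjusted p under 0.05 with the same sign. The lower comparison called 24.1% of features and the upper one 44.1%. Both called 1312 features that rose (6.1%) and 1519 that fell (7.06%), together 13.2%, and 243 others were called in both with opposite signs. A difference of at least 0.5, or 1.41-fold, with an adjusted p under 0.05 over all mice was reached by 223 features (1.04%), 138 higher (0.642%) and 85 lower (0.395%). Of these, 198 were also called in both comparisons, and for 145 the medians of the 4 run bins lay wholly outside those of the 9 middle bins, against 4.62% of all features (2.01% higher and 2.61% lower).

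**Figure D2:**
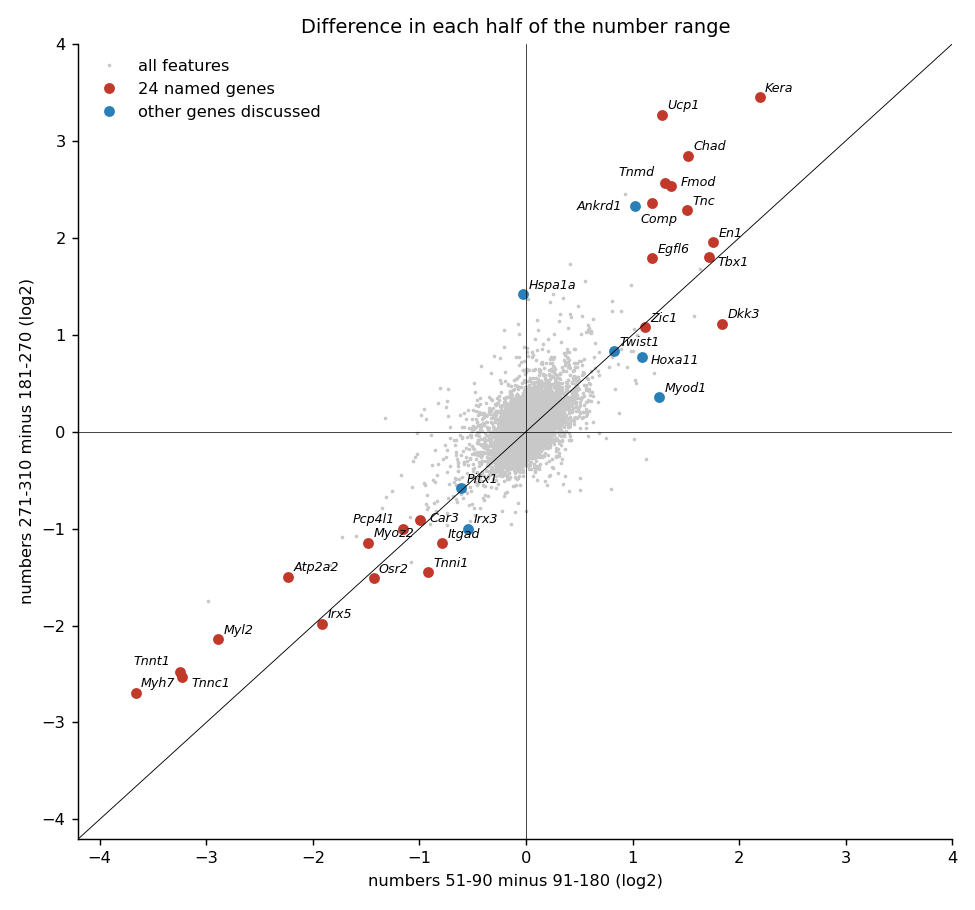
Difference in log2 ratio between numbers 271-310 and 181-270 (y axis) against that between numbers 51-90 and 91-180 (x axis); each grey point is 1 of 21512 features, red points are the 12 genes per direction with the largest differences shared by both comparisons, blue points are other genes described in the text, and the diagonal marks equal differences. The tendon genes and Ucp1 lie above the diagonal, Irx5, Osr2, Tbx1 and Zic1 near it, and Dkk3 below it.

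Beside Irx5 and En1, 2 other patterning genes separated the groups as sharply. Tbx1, a T-box factor of the pharyngeal arches and head muscles, ranged from -0.32 to 1.60 with a median of 1.06 in the lower run. It ranged from 0.57 to 1.64 with a median of 1.16 in the upper run, and from -2.14 to 0.76 with a median of -0.67 in the middle. The difference was 1.76 ± 0.06 (SE; limma adjusted p = 2.44e-83; adjusted p over bin means = 3.60e-08), with 1.71 in the lower and 1.81 in the upper comparison. Tbx1 was a listed follower of the slow fibre genes, so these p-values are no independent test. Ranked over all named genes by the share of pairs of 1 run mouse and 1 middle mouse that differ in the gene's direction, Tbx1 came first with 99.6% of pairs, and Myh7 came 11th with 96.1%. Osr2, an odd-skipped zinc finger factor of developing limb and palate, had medians of -1.20 and -1.15 in the runs against 0.30. It fell by 1.47 ± 0.05 on the log2 scale (adjusted p = 3.46e-78), and 98.4% of pairs had the run mouse lower.

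Zic1, a zinc finger factor of the dorsal neural tube and somites, ranged from -0.29 to 2.25 in the runs with a median of 0.70, and from -2.15 to 1.09 in the middle with a median of -0.39. It rose by 1.09 ± 0.06 (adjusted p = 2.24e-40), with 1.11 and 1.08 in the lower and the upper comparison. Twist1, a bHLH factor of limb and head mesenchyme, rose by 0.83 ± 0.05, with 0.82 in the lower and 0.83 in the upper comparison. Meis2, a TALE homeobox cofactor of Hox proteins, fell by 0.60 ± 0.03, with ranges of -0.97 to 0.62 in the runs and -0.44 to 0.57 in the middle. Gsc, the homeobox gene goosecoid, was chosen after its values were seen and was lower by 0.77 ± 0.04, with 94.7% of pairs in that direction.

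Apart from Irx5, En1 and Pitx1, 51 genes of limb and body position were measured, of which 11 rose and 4 fell. Over all features 6.1% rose and 7.06% fell, so the number that fell was near that share. The median difference of the 51 genes was 0.01 against -0.01 over all features. Over bin means 7 of the 11 and 3 of the 4 passed as well. The genes that rose were Tbx1, Zic1, Twist1, Twist2 (0.46), Prrx2 (0.78), En2 (0.76), Eya2 (0.36), Shox2 (0.32), Tbx15 (0.26), Pax3 (0.24) and Tbx18 (0.22). Those that fell were Irx3 (-0.78), Meis2, Emx2 (-0.26) and Barx2 (-0.19). Tbx5, the forelimb T-box factor, differed by 0.05 ± 0.03 (adjusted p = 0.157), with medians of -0.02 in both groups. Over bin means the differences of Eya2, Shox2, Tbx15, Tbx18 and Barx2 missed the threshold, with adjusted p of 0.0815, 0.180, 0.191, 0.204 and 0.188 (limma).

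Hox genes, which mark position along the body and limb axes, moved in both directions. Of 29 measured, 3 rose and 5 fell, against 6.1% and 7.06% of all features, with a median difference of -0.01. Hoxc6 rose by 0.76 ± 0.04 (adjusted p = 2.11e-47) and was higher in the run mouse in 97.7% of pairs, with medians of 0.49 in the runs and -0.25 in the middle. Hoxa11, a gene of the zeugopod, rose by 0.92 ± 0.09 and Hoxc8 by 0.43 ± 0.05. Hoxd4 fell by 0.57 ± 0.04, Hoxd9 by 0.56 ± 0.03, Hoxd10 by 0.38 ± 0.03, Hoxa5 by 0.17 ± 0.02 and Hoxb13 by 0.09 ± 0.02. Those that moved in the C cluster rose and those in the D cluster fell, while in the A cluster Hoxa11 rose and Hoxa5 fell. Over bin means the differences of Hoxc8 and Hoxb13 missed the threshold (limma adjusted p = 0.142 and 0.108).

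**Figure D3:**
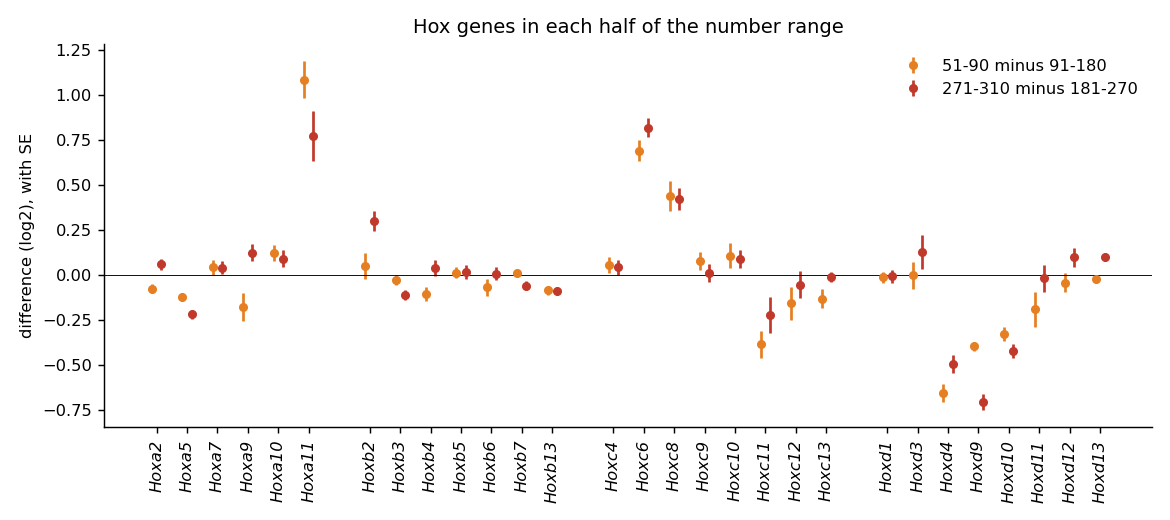
Difference in log2 ratio with its SE (y axis) for the 29 measured Hox genes by cluster (x axis), orange for numbers 51-90 minus 91-180 and red for 271-310 minus 181-270. Hoxa11, Hoxc6 and Hoxc8 lie above 0 and Hoxd4, Hoxd9 and Hoxd10 below it in both comparisons; most others lie near 0.

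The slow fibre genes, used to choose the runs, are given as values without a test, and their direction was fixed by that choice. Tnnc1 and Tnnt1, the slow troponin C and T, differed by -2.86 ± 0.12 and -2.84 ± 0.13, Myl2, the slow regulatory light chain, by -2.49 ± 0.13, and Atp2a2, the slow calcium pump, by -1.84 ± 0.10. Myoz2, a Z-disc protein of slow fibres, differed by -1.30 ± 0.07 and Tnni1, the slow troponin I, by -1.20 ± 0.08. The 12 measured members differed by -3.15 to -0.03, and the smaller differences included those of the LIM protein gene Csrp3 (-0.66), the myoglobin gene Mb (-0.20) and the atrial myosin gene Myh6 (-0.03). Myh7 differed by -3.66 in the lower comparison and by -2.69 in the upper comparison, whereas Tnni1 differed by -0.92 and -1.45. The 5 probes of Tpm3, which encodes slow and non-muscle tropomyosins, disagreed, with differences of -2.89, -1.36, 0.03, 0.10 and 0.21.

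Of 16 listed fast fibre genes only 6 were measured, with no fast myosin heavy chain among them, and these differed little. Casq1, the fast calsequestrin, rose by 0.39 ± 0.06 and none fell, with a list median of -0.02. Atp2a1, the fast calcium pump, differed by 0.19 and was not called in both comparisons. Mylpf, the fast regulatory light chain, differed by -0.04 ± 0.05, Tnnc2, the fast troponin C, by -0.06 ± 0.04 and Pvalb, parvalbumin, by 0.01 ± 0.04. Of 24 regulators of fibre type, Tbx15 rose, and Myog (-0.56), Sox6 (-0.37) and Tead1 (-0.11) fell. Over all features 6.1% rose and 7.06% fell. Over bin means only Sox6 passed (limma adjusted p = 0.0151), with 0.191 for Tbx15, 0.109 for Myog and 0.0632 for Tead1. Sox6 is a repressor of slow genes. Myod1, the myogenic factor more abundant in fast muscle, was higher by 1.25 in the lower comparison and by 0.35 in the upper comparison and was not called in both. Ppargc1a, the coactivator of mitochondrial genes, was lower by 0.43 in the lower comparison and higher by 0.29 in the upper comparison, and over all mice its difference was -0.05 ± 0.09 (limma adjusted p = 0.675).

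Several genes of oxidative metabolism fell by small amounts. Of 15 genes of fatty acid uptake and oxidation 7 fell and none rose, with a median difference of -0.14. Over all features 7.06% fell. Over bin means 4 of the 7 passed. The 7 included Acads (-0.48 ± 0.06) and Acadm (-0.26 ± 0.03), acyl-CoA dehydrogenases, Cpt1b (-0.34 ± 0.03), the carnitine transferase of the outer mitochondrial membrane, and Hadh (-0.25 ± 0.04). Of 12 genes of oxidative phosphorylation 3 fell, and 1 of 9 of the tricarboxylic acid cycle. None of these passed over bin means with limma, where 7 and 2 genes of the lists were lower at an unadjusted p under 0.05. The share of all features at that unadjusted threshold was not counted, so nothing is concluded from these counts. Of 17 genes of glycolysis and glycogen 4 fell, led by Ldhb (-0.68 ± 0.06), the heart-type lactate dehydrogenase subunit, and Fbp2 (-0.37 ± 0.05), muscle fructose bisphosphatase, and 3 of the 4 passed over bin means. Acads missed the threshold over bin means (limma adjusted p = 0.0987).

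Tendon and matrix genes were higher in the runs. Kera ranged from -2.20 to 2.89 with a median of 1.34 in numbers 51-90. It ranged from 1.31 to 2.90 with a median of 2.13 in numbers 271-310, and from -3.51 to 2.14 with a median of -1.40 in the middle. Every mouse of the upper run was above the pool, while the lower run held mice at the level of the runs and at that of the middle. The difference was 2.86 ± 0.13 (limma adjusted p = 6.12e-54), with 2.19 in the lower and 3.45 in the upper comparison. The difference was larger in the upper comparison for Kera (limma interaction adjusted p = 5.77e-05), Chad (8.33e-07), Tnc (0.00117), Fmod (6.47e-07), Tnmd (1.22e-06) and Comp (1.14e-07), a test that called 16.2% of all features in either direction. Of 14 tendon genes 11 rose and none fell, with a median difference of 0.83, against 6.1% of all features that rose. Over bin means 9 of the 11 passed. Chad, a leucine-rich cartilage and tendon protein, rose by 2.22 ± 0.12, the collagen-binding proteoglycan Fmod by 1.98 ± 0.11, Tnmd, the tendon membrane protein tenomodulin, by 1.97 ± 0.11, Comp by 1.80 ± 0.10 and Prg4, lubricin, by 1.73 ± 0.12. Scx, the transcription factor that defines tendon cells, differed by 0.04 ± 0.04 (adjusted p = 0.396), with medians of -0.01 in the runs and -0.11 in the middle.

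Of 21 matrix and fibroblast genes 9 rose and none fell, with a median of 0.23, against 6.1% of all features that rose. Over bin means 5 of the 9 passed. Dkk3, a secreted Dickkopf protein, rose by 1.46 ± 0.11, Lox, the collagen cross-linking oxidase, by 0.83 ± 0.10 and Penk, proenkephalin, by 0.79 ± 0.07. Lox missed the threshold over bin means (limma adjusted p = 0.130). Col1a1 rose by 0.17 ± 0.02 as the mean of 4 probes, of which 1 differed by 0.86 and the others by -0.03 to -0.10. Tnc, tenascin-C, rose by 1.92 ± 0.10 and Egfl6, an EGF-domain matrix protein, by 1.19 in the lower and 1.79 in the upper comparison. The mean level of the tendon list ran from -0.93 to 1.45 over run mice and from -1.07 to 1.15 over middle mice, with medians of 0.88 and -0.41. Whether tendon tissue in the samples bears on the other differences was not tested.

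**Figure D4:**
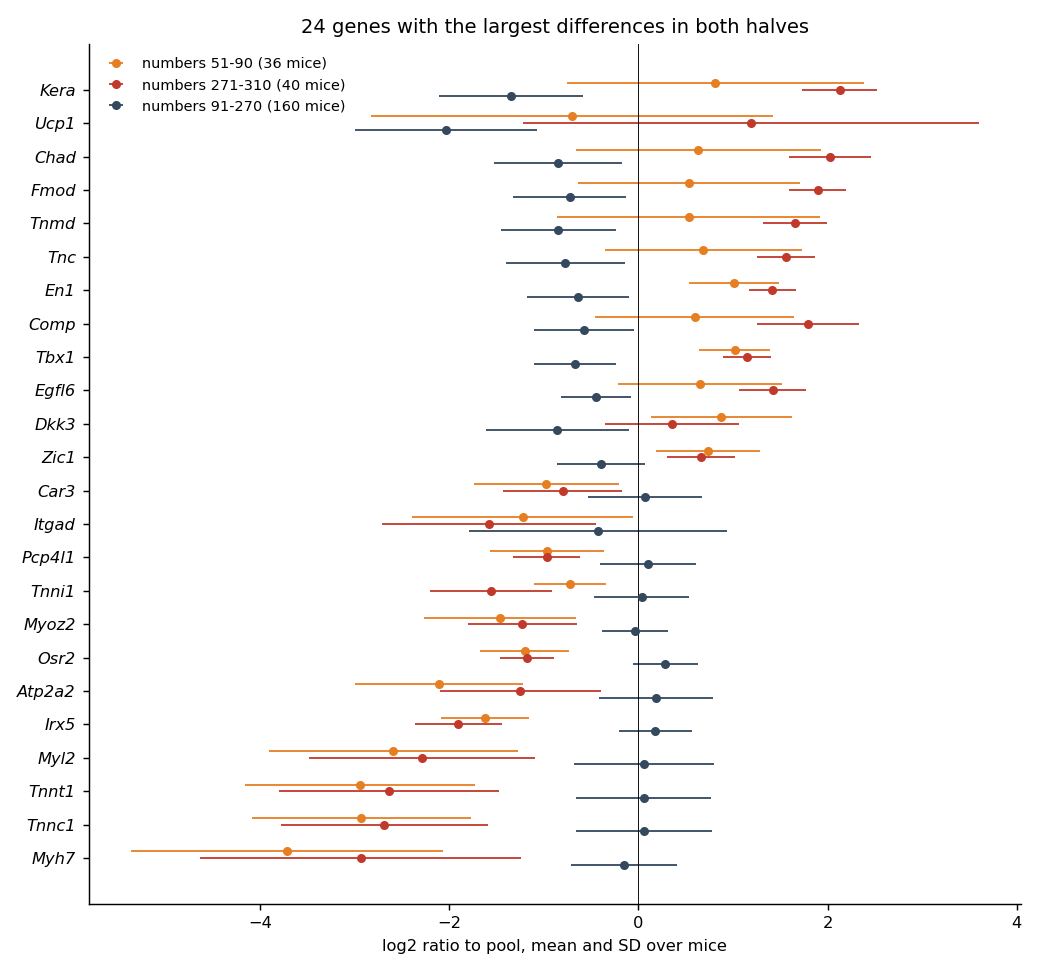
Mean log2 ratio to the pool with its SD over mice (x axis) for the 24 genes with the largest differences shared by both comparisons, ordered by the difference between the runs and the middle (y axis), orange for numbers 51-90, red for 271-310 and dark blue for 91-270. Tbx1, Osr2, Irx5 and Zic1 have like means in both runs, while Kera, Chad, Fmod, Tnmd, Comp and Ucp1 are higher and less spread, or for Ucp1 more spread, in 271-310.

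Among genes of other cell types, macrophage genes were higher in the runs. Of 18 measured 10 rose and none fell, with a median of 0.29, against 6.1% of all features that rose, and 9 of the 10 passed over bin means; Laptm5 rose by 0.58 ± 0.08, Cd53 by 0.57 ± 0.08 and Csf1r, the receptor for the macrophage growth factor, by 0.42 ± 0.06, while Cd68 differed by -0.14 ± 0.03. The mean level of that list ran from -0.63 to 0.81 in the runs and from -0.90 to 0.52 in the middle. Of 14 lymphocyte genes 1 rose, and of 10 white adipocyte genes Car3 (carbonic anhydrase 3, also a slow muscle enzyme) fell by 0.95 ± 0.09, shares near the 6.1% and 7.06% of all features that rose and fell. Of 12 endothelial genes 3 fell. Neither the lymphocyte nor the endothelial calls passed over bin means with limma, where no lymphocyte gene was higher and 2 endothelial genes were lower at an unadjusted p under 0.05. The share of all features at that unadjusted threshold was not counted. Of 10 satellite cell genes 3 rose, 2 of them also over bin means: Vcam1 (0.41), Cd34 (0.29) and Itga7 (0.15; limma adjusted p over bin means = 0.108) are not restricted to these cells, and Pax7, which defines them, differed by 0.02. The part of these cells in the other differences was not tested.

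Ucp1, the uncoupling protein that defines brown fat cells, was high in a part of the run mice. It ranged from -2.61 to 4.60 with a median of -1.74 in the lower run, from -2.01 to 5.89 with a median of 0.66 in the upper run and from -3.11 to 5.58 with a median of -2.19 in the middle. It rose by 2.32 ± 0.23 (limma adjusted p = 1.38e-18; over bin means 0.0200), and 46 run mice and 12 middle mice lay past the midpoint. Of 11 brown adipocyte genes 5 rose and 2 fell, against 6.1% and 7.06% of all features. Of these genes, 4 and 2 also passed over bin means. Zic1, Dio2 (0.66), Elovl3 (0.46) and S100b (0.40) rose beside Ucp1, and Cpt1b and Lhx8 (-0.30) fell. Cidea, a lipid droplet protein of brown fat, differed by 0.02 in the lower and by 1.37 in the upper comparison and was not called in both.

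**Figure D5:**
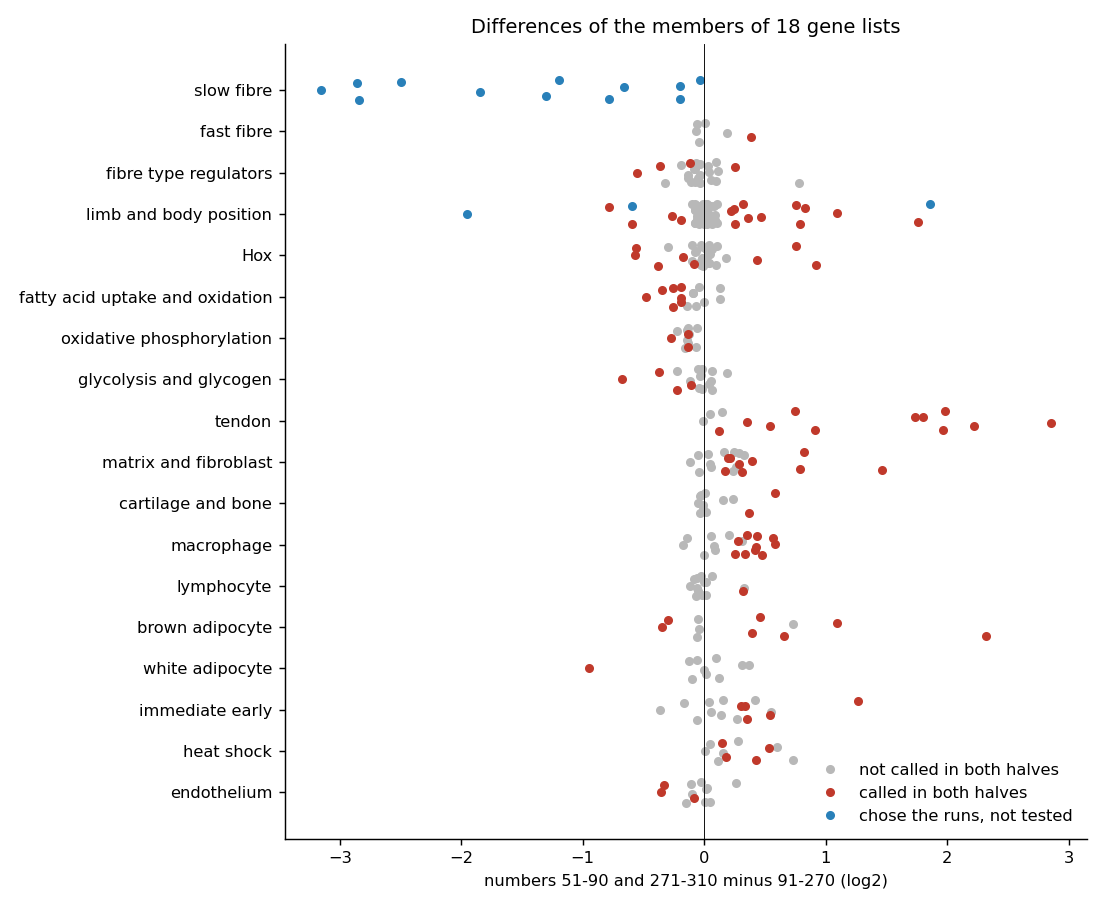
Difference in log2 ratio between numbers 51-90 and 271-310 and numbers 91-270 (x axis) for the measured members of 18 gene lists (y axis); each point is 1 gene, blue where it chose the runs and was not tested, red where it was called in both comparisons with the same sign, and grey otherwise. Tendon, matrix and macrophage genes lie mostly to the right and slow fibre genes, which chose the runs, to the left, while position and Hox genes lie on both sides.

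Genes that respond to load, calcium and stress included some of the larger differences. Slc8a1, the sodium-calcium exchanger, rose by 0.87 ± 0.04 (limma adjusted p = 2.36e-51), with 0.89 in the lower and 0.86 in the upper comparison and 97.5% of pairs in that direction. Of its list of 17 calcium and excitation genes 2 rose and 1 fell, and 1 in each direction passed over bin means. Over all features 6.1% rose and 7.06% fell, so the counts of this list were near those shares. Of 13 strain and LIM protein genes outside the slow fibre list, 1 rose and 3 fell, all of them also over bin means. Ankrd1, a stretch-responsive ankyrin repeat protein, rose by 1.71 ± 0.19, with 1.02 in the lower and 2.33 in the upper comparison. Ankrd2 and Ankrd23 of the same list differed by -0.49 and 0.03 and were not called in both. The LIM protein genes Fhl2 (-0.98 ± 0.06), Fhl1 (-0.81 ± 0.06) and Pdlim1 (-0.79 ± 0.07) fell. All 3 were listed followers of the slow fibre genes, so their fall was largely fixed by the choice of the runs. Of 15 immediate early genes 5 rose and none fell, and Egr1 and Fos also passed over bin means. Egr1, a zinc finger factor induced within minutes of a stimulus, rose by 1.26 ± 0.14. Over all mice 9 of the 15 were higher and 2 lower (limma adjusted p under 0.05), against 18.3% and 27.1% of all features. Nr4a1 differed by -0.36. Of 11 heat shock genes 4 rose, 3 of them also over bin means, with Hsp90aa1 at 0.54 ± 0.06 and Hsph1 at 0.42 ± 0.05. Hspa1a, the inducible Hsp70, differed by -0.03 in the lower and by 1.42 in the upper comparison. Such genes can change while tissue is taken, and the part of handling in these differences was not tested.

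The 49 mice numbered 311-362 belonged to neither group and did not match either. Their Myh7 medians were 0.25 in numbers 311-330 (19 mice), 0.29 in 331-350 (18 mice) and 0.20 in 351-362 (12 mice), near the middle. Irx5 had medians of -0.03, 0.39 and 0.29 and Tbx1 of -0.45, -0.24 and -0.55. En1, with 0.90, 0.64 and -0.04, and Zic1, with 0.56, 0.50 and -0.23, were near the runs at first and near the middle in the last mice. Hoxa11 had medians of 1.86, 1.84 and 0.34, against 0.45 in the runs and -0.66 in the middle, and Osr2 had -0.45, -0.34 and 0.10, between the groups.

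On the array side, the SD over features ran from 0.228 to 0.582 on run arrays, with a median of 0.297, and from 0.176 to 0.617 on middle arrays, with a median of 0.275. The level of the Y-linked Eif2s3y was above -2 in 57.9% of run mice and 56.9% of middle mice. Among the mice above -2 its level was not even, with a median of -0.02 in the runs and 0.72 in the middle. Along the number this median was 0.93 in 51-90, 0.98 in 91-180, 0.10 in 181-270 and -0.24 in 271-310.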

How the data were processed

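Muscle RNA of 285 mice was hybridised against a common pool. The authors deposited 1 value for each of 23560 probes and each array, which is read here as log10 of mouse over pool; base, sign and normalization are not given in the sources used here. Array medians of the deposited log10 values lay between -0.0222 and 0.0173, and the values were bounded at 2 and -2. Mouse over pool was kept because a gene's linear ratio, averaged over mice that all went into the pool, should be near 1: for the Y-linked Eif2s3y the average was 0.796 that way and 23.2 with the sign turned. With the sign turned, every direction in the text would reverse. Arrays correlated with each other from -0.744 to 0.801, and 2.48% of pairs lay below -0.3. Values were multiplied by 3.32 to give log2.

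The 23510 probes with values on at least 80% of arrays were kept, and missing values (0.0972%) were set to the probe's mean. GEO's platform annotation, updated through Entrez identifiers, gave 13653 probes 1 symbol, 48 several and 9859 none; probes of a gene were averaged. Groups were tested with limma 3.58.1 (lmFit, eBayes with trend, no covariate) in R 4.3.3, with Benjamini-Hochberg adjustment over all 21512 features. The fit was also run on simulated data in which mice were independent. That check does not cover the likeness of mice of near numbers. The 24 genes of the mean plot are the 12 per direction with the largest smaller absolute difference in the lower and the upper comparison, among genes called in both; the 4 genes of the rule and up to 4 members of each list were added. Members, lists and tests were chosen with earlier results of these data known. Labels do not say how animals were housed or processed. The p-values over mice set each difference against the spread between arrays, 1 per mouse, and take the mice as independent. The number of arrays limits the precision. Numbers 311-362 entered only the alternative against all 209 other mice. Alternatives covered scaling, centring, probe choice, missing values, outlying arrays, limits, covariates, blocks and each run left out.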

Additional observations from a re-analysis of the deposited data

Results flagged for a closer look

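For several genes the difference from the neighbouring middle mice was unequal in the 2 runs by limma's interaction term; each value here is the difference in the upper comparison (271-310 minus 181-270) less that in the lower comparison (51-90 minus 91-180). It was 2.00 for Ucp1, and among tendon and matrix genes 1.32 for Chad, 1.26 for Kera, 1.26 for Tnmd, 1.18 for Comp, 1.17 for Fmod, 0.77 for Tnc and 0.60 for Egfl6, all higher in both comparisons. Dkk3 had -0.73, being higher by 1.84 in the lower and by 1.12 in the upper comparison. The slow fibre genes chose the runs, so the interaction term is no test for them and their values are a description. For these genes the value was 0.70 for Tnnc1, 0.77 for Tnnt1, 0.74 for Myl2 and 0.74 for Atp2a2. Their differences from the middle were smaller in the upper comparison. For Tnni1, whose difference was larger there, the value was -0.53. Tbx1 (interaction adjusted p = 0.627), Osr2 (0.628) and Zic1 (0.890) did not pass this limma test.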

How the results depend on the processing

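Of the 3933 higher and 5820 lower calls at an adjusted p under 0.05, 1251 and 1374 were made with the bin of 20 numbers as a random block and 641 and 564 over bin means. Lower calls numbered 3717 against all 209 other mice and 2703 without numbers 271-310. The 138 higher and 85 lower features of at least 0.5 became 350 and 139 without numbers 51-90, and 200 lower without numbers 271-310. With the values read in base 2 they became 11 and 7. The alternatives for this threshold, base 2 and leaving out mice 89 and 270 were chosen after seeing the data. In the main comparison the other alternatives left these counts within 1.5 times, and the counts called in both the lower and the upper comparison (1312 and 1519) stayed so under 8 alternatives, with 1287 and 1421 without mice 89 and 270. Over 25 genes and 17 alternatives, 424 of 425 values kept direction and call. These are the genes of the mean plot and Pitx1. They were picked for large differences in these data or chose the runs, so their stability was largely fixed by that choice. Itgad, an integrin subunit gene lower by 0.98 ± 0.18, missed the threshold over bin means (limma adjusted p = 0.0521). No paired analysis was possible because the groups share no mouse numbers.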
